A study of Mus musculus with 6 samples.

Results

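The expression of 10 genes of the tumor necrosis factor (TNF) and NF-kB system was examined in infarcted heart tissue of mice given the Wnt secretion inhibitor LGK974 or its vehicle. The genes were chosen by name, with earlier results of these data known. They comprise the ligand Tnf, the receptors Tnfrsf1a, Tnfrsf1b and Tnfrsf12a, the feedback and response genes Tnfaip3, Tnfaip6 and Nfkbia, and the NF-kB subunit genes Nfkb1, Nfkb2 and Relb. They are 10 of the 36047 genes to which the deposited transcripts could be joined. All animals were C57BL6 mice, 12 weeks old by the labels and female by the methods of the study. Each underwent temporary occlusion of the left anterior descending artery followed by reperfusion, and the infarct area was taken 48 h after the injury. The group LGK974 (3 libraries) received the Porcupine inhibitor by gavage, and the group DMSO (3 libraries) received the DMSO vehicle. LGK974 blocks the enzyme Porcupine (Porcn), which attaches the lipid that Wnt proteins need for secretion. No uninjured tissue is among the libraries, so the values compare treated with untreated injury and not injury with health. The tissue was bulk, so fewer cells of a type and less RNA per cell cannot be told apart, and the inhibitor was given to the whole animal and not to one cell type.

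TNF is an inflammatory cytokine made mainly by activated macrophages and monocytes. It is cut from the cell surface and signals through a widely expressed receptor, TNFR1, and through TNFR2, which is prominent on leukocytes and endothelial cells. Receptor signaling activates IkB kinases, IkB proteins are degraded, and NF-kB dimers enter the nucleus. There they switch on inflammatory genes together with their own inhibitors, among them IkB-alpha and A20, so that the response limits itself. A slower, noncanonical branch processes the p100 precursor and acts through RelB. In the heart, ischemia and reperfusion are known to induce TNF and NF-kB activity in resident cells and in infiltrating leukocytes.

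The libraries held 41579787 to 80398211 estimated counts, of which 28.2 to 53.7% fell on mitochondrially encoded genes. Levels are given as CPM, that is counts relative to a library size scaled by edgeR's TMM method, and gene length is not part of this value. The cardiomyocyte markers of the labelled tissue summed to 44345 to 65291 CPM under LGK974 and 50899 to 70766 CPM under DMSO, and all 15 were measured. DMSO replicate 1 stood apart from the other 5 libraries. Its counts on 1501 smell, pheromone and taste receptor genes, families that act mainly in sensory tissue, had a median of 31.9 counts per kb of exon, against 2.91 to 11.4 in the others. This level is called the background below. For an alternative count, it was multiplied by the exon length of each gene and taken off the counts of that library (counts less background). Values that moved most without DMSO replicate 1 are given both ways. The labels name no batch.

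The 10 genes spanned a wide range of levels. Compared per length, as the authors' TPM summed over the transcripts of a gene (abundance per transcript length, scaled to a fixed sum within each library), Tnfrsf12a ranked first in 6 of 6 libraries, with 14.9 to 99.1 TPM. Tnfrsf1a followed with a mean of 22.4 TPM and Nfkbia with 17.6, and their order was not settled, since Tnfrsf1a was the higher of the pair in 4 of 6 libraries. Nfkbia lay above Nfkb1 (mean 12.6 TPM) in 6 of 6 libraries, and Nfkb1 above Nfkb2 (mean 7.04) in 6 of 6. Nfkb2 and Tnfrsf1b (mean 5.29 TPM) took turns, with Nfkb2 higher in 4 of 6 libraries. Tnfrsf1b was higher in LGK974 replicate 2 and DMSO replicate 2, where Tnfrsf1b-202, a short transcript with few counts, held 52.4 and 48.8% of its TPM. On protein-coding transcripts alone, Nfkb2 was at 5.45 and 4.43 TPM in these libraries, against 2.88 and 2.86 for Tnfrsf1b. Relb, Tnfaip3, Tnfaip6 and Tnf were at the low end, with means of 2.84, 1.93, 1.67 and 1.14 TPM. The ligand Tnf had a lower level per length than each of its receptors in every library. TPM moves with the mitochondrial share of a library, which was lowest in LGK974 replicate 3, so it was used only within libraries, to order genes and for ratios between them.

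The stretches before a transcript start of 4 of the genes are printed below. They are given because NF-kB is known to act on its own inhibitors through sites of this kind. These 4 are the searched members that hold such letters. RefSeq promoter windows of GRCm38.p6 were at hand for 8 of the 10 genes, and the 250 bases before the start were searched on both strands. Nfkb1 and Relb had no window and were not searched. The motifs were GGANNTTCC and the NF-kB consensus decamer, which can overlap each other, and at least one of them was found in 6.66% of 32817 promoter windows of the same length. At the start nearest to the leading transcript, 4 of the 8 genes held one, and Tnfrsf1a, Tnfrsf1b, Tnfrsf12a and Tnfaip6 held neither. The sequences run 5′ to 3′ on the strand of the gene, and capitals mark the letters of the motifs. The stretches are chr17:35202008-35202257 on the minus strand for Tnf, chr10:19015411-19015547 on the minus strand for Tnfaip3, chr12:55492648-55492897 on the minus strand for Nfkbia and chr19:46305445-46305694 on the plus strand for Nfkb2. That of Tnfaip3 is cut to 137 bases, because the rest of its window is untranslated sequence of another isoform. The stretches of Tnfaip3 and Nfkb2 lie before a transcript start but inside the annotated span of the gene.
Tnf: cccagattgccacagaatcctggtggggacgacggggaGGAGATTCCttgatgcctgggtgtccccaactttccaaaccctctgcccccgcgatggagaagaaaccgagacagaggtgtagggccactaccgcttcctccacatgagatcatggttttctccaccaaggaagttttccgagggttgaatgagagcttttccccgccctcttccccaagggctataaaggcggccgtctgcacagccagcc
Tnfaip3: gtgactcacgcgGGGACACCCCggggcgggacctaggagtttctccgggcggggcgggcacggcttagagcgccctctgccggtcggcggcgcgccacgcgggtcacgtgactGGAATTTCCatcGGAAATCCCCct
Nfkbia: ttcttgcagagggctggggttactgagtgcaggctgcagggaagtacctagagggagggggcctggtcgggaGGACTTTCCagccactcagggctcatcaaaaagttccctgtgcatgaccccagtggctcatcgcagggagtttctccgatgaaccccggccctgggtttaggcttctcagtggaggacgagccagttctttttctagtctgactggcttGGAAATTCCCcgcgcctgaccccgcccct
Nfkb2: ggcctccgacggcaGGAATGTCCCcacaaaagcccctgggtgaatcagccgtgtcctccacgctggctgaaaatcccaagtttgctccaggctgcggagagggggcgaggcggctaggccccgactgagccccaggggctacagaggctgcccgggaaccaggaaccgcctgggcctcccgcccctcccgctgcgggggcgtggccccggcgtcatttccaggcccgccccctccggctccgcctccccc
A match is only a run of letters, and binding was not measured. In Nfkbia the capitals nearest to the start begin 29 bases before it, and in Tnfaip3 they begin 24 and 12 bases before it. Tnf held a match 212 bases before its start, and the match in Nfkb2 began 236 bases before the start of its leading transcript. Another annotated start of Nfkb2, 959 bases away from that of the leading transcript, has decamer matches that begin 39, 38 and 11 bases before it. Exons of the noncoding gene AC114539.1 share 531 bases with those of Nfkb2 on the other strand, and they may also overlap the printed stretch.

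Across all genes, LGK974 was compared with DMSO by edgeR's quasi-likelihood test on the 20094 genes that reached 10 counts in 3 or more libraries. All 10 genes were among them, and each had at least 10 counts in all 6 libraries (the lowest was 43, for Tnf in DMSO replicate 3). None of the 10 passed an adjusted p-value of 0.05, where the share over all genes was 0% (0 of 20094 genes by edgeR, 2699 at an unadjusted p-value under 0.05, 0 by limma-voom and 337 by DESeq2). DESeq2 called 0 of the 10 as well, beside 2.3% of the genes to which it gave an adjusted p-value (1.97% on the higher side). At an unadjusted threshold of 0.05, 3 of the 10 were higher with LGK974 and 0 lower, where 6.26% and 7.18% of all genes were. The 3 were Tnfrsf1a, Tnfrsf1b and Nfkb2. In 6 of the 10 genes, namely Tnf, the 3 receptors, Nfkb1 and Nfkb2, every LGK974 library lay above every DMSO library, and this was so in 10.7% of all genes. In 0 of the 10 did every LGK974 library lie below, as in 7.27% of all genes, and the groups were apart in either direction in 18% of all genes. In Tnfaip3, Tnfaip6, Nfkbia and Relb the groups overlapped. The median log2 fold change of the 10 was 0.39, beside −0.13 over all genes tested. Of the 10, 9 were above 0, where 8130 of the 20094 genes were. Without DMSO replicate 1 the median was 0.35, beside −0.021 over all genes, and 2 of the 10, Tnf and Tnfrsf1b, lay below 0.05 in edgeR's unadjusted p-value (11% of all genes in that fit, and 7.12% on the higher side). In that fit 0 of the 10 passed the adjusted threshold, against 0.0108% of all genes. Without LGK974 replicate 2, 0 of the 10 lay below the unadjusted threshold, where 1826 of 19684 genes did. Without LGK974 replicate 3 it was also 0 of the 10, where 821 of 19712 genes lay below it. The p-values measure the spread between 3 mice a group.

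**Figure D1:**
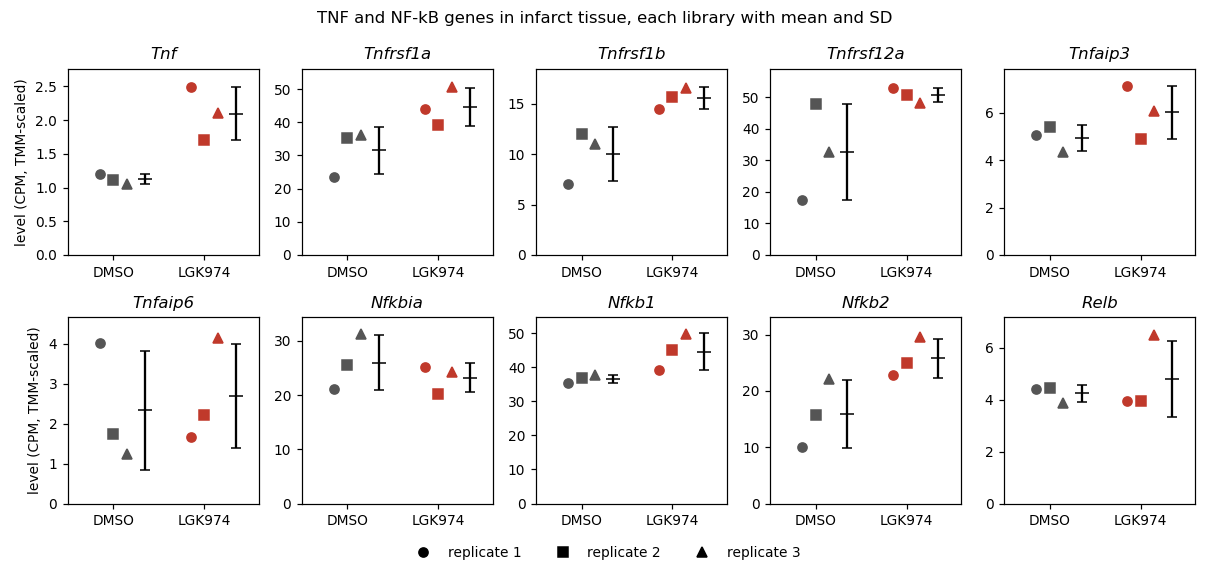
Level of each of the 10 genes in CPM (vertical axes, from 0, one scale per gene) in the 3 DMSO (grey) and 3 LGK974 (red) libraries, with the mean and SD of each group beside the points. In Tnf, Tnfrsf1a, Tnfrsf1b, Tnfrsf12a, Nfkb1 and Nfkb2 all red points lie above all grey points, while in Tnfaip3, Tnfaip6, Nfkbia and Relb they overlap.

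Tnf, on chromosome 17 from 35199381 to 35202007 (GRCm38, minus strand), encodes the ligand. Its level was 2.49, 1.70 and 2.10 CPM in LGK974 replicates 1, 2 and 3, and 1.21, 1.12 and 1.06 CPM in DMSO replicates 1, 2 and 3. The LGK974 libraries were all above the DMSO libraries, and the DMSO libraries lay close together. The means were 2.09 ± 0.394 against 1.13 ± 0.0756 CPM, where here and below the LGK974 mean comes first and ± is the SD of n = 3 libraries. This was a log2 fold change of 0.89 (standard error 0.399, 95% interval −0.031 to 1.82). By edgeR's quasi-likelihood test this gave an adjusted p of 0.368. The values rest on few counts, 91 to 211 with LGK974 and 43 to 54 with DMSO. Per kb of exon, Tnf was at 0.917 times the background in DMSO replicate 1, at 2.90 and 9.01 times in DMSO replicates 2 and 3, and at 11.8 to 26.7 times in the LGK974 libraries. In DMSO replicate 1, Tnf counts could thus not be told from the background, and the log2 fold change without that library was 0.97 (adjusted p = 0.3995 by edgeR). No exon of another annotated gene overlaps those of Tnf, and the transcript Tnf-201 held all of its counts but a trace in 5 of the 6 libraries and 64.9 of 91 in LGK974 replicate 2.

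Tnfrsf1a, on chromosome 6 from 125349362 to 125362484, encodes TNFR1, the receptor with a death domain that carries most TNF signals. Its level was 43.98, 39.3 and 50.6 CPM in LGK974 replicates 1, 2 and 3, and 23.4, 35.2 and 36.1 CPM in DMSO replicates 1, 2 and 3. DMSO replicate 1 was the lowest, and the gap between the groups was small next to the spread, since the lowest LGK974 library (39.3 CPM) was near the highest DMSO library (36.1). The means were 44.6 ± 5.70 against 31.6 ± 7.08 CPM, a log2 fold change of 0.50 (standard error 0.206, 95% interval 0.022 to 0.98), with an adjusted p of 0.368 by edgeR's test. The value was 0.34 without DMSO replicate 1, where the unadjusted p from edgeR was 0.0650.

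Tnfrsf1b, on chromosome 4 from 145213463 to 145246870, encodes TNFR2, the receptor without a death domain. Its level was 14.5, 15.7 and 16.6 CPM in LGK974 replicates 1, 2 and 3, and 7.01, 11.98 and 11.1 CPM in DMSO replicates 1, 2 and 3. All LGK974 libraries again lay above the DMSO libraries, with DMSO replicate 1 lowest. The means were 15.6 ± 1.06 against 10.01 ± 2.64 CPM, a log2 fold change of 0.64 (standard error 0.223, 95% interval 0.12 to 1.16), with an adjusted p of 0.368 by edgeR's test. Without DMSO replicate 1 the log2 fold change was 0.45 with an unadjusted p of 0.0164 by edgeR, on the same side of the unadjusted threshold. Without LGK974 replicate 2 or 3 the unadjusted p by edgeR was 0.0584 or 0.0590, on the other side of it.

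Tnfrsf12a, on chromosome 17 from 23675445 to 23677468, encodes Fn14, the receptor of the TNF-like ligand TWEAK, and is known as an injury-induced gene of muscle and fibroblasts. Its level was 52.8, 50.8 and 48.3 CPM in LGK974 replicates 1, 2 and 3, and 17.3, 47.9 and 32.7 CPM in DMSO replicates 1, 2 and 3. The LGK974 libraries lay close together, whereas the DMSO libraries were spread widely, and the highest of them was just under the lowest LGK974 library. The means were 50.6 ± 2.27 against 32.6 ± 15.3 CPM, a log2 fold change of 0.63 (standard error 0.327, 95% interval −0.13 to 1.39), with an adjusted p of 0.387 by edgeR's test. This difference depended on single DMSO libraries. It was 0.35 without DMSO replicate 1 and 1.01 without DMSO replicate 2 (adjusted p = 0.515 and 0.369 by edgeR).

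Among the feedback and response genes the groups overlapped in all 3. Nfkbia, on chromosome 12 from 55489410 to 55492647, encodes IkB-alpha, which holds NF-kB in the cytoplasm and is itself an early NF-kB target. Its level was 25.2, 20.1 and 24.2 CPM in LGK974 replicates 1, 2 and 3, and 21.2, 25.5 and 31.3 CPM in DMSO replicates 1, 2 and 3. The groups overlapped, and the highest library was DMSO replicate 3. The means were 23.2 ± 2.68 against 25.99 ± 5.06 CPM, a log2 fold change of −0.17 (standard error 0.185, 95% interval −0.60 to 0.26), with an adjusted p of 0.656 by edgeR's test. Its sign was not stable, since the log2 fold change was 0.096 without DMSO replicate 3, 0.052 when libraries were scaled by their totals alone and −0.35 on counts less background, where edgeR's unadjusted p was 0.0382.

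Tnfaip3, on chromosome 10 from 19000910 to 19015657, encodes A20, the ubiquitin-editing enzyme that shuts off signaling from the TNF receptor. Its level was 7.10, 4.87 and 6.08 CPM in LGK974 replicates 1, 2 and 3, and 5.08, 5.38 and 4.32 CPM in DMSO replicates 1, 2 and 3. LGK974 replicate 1 was the highest and DMSO replicate 3 the lowest, and LGK974 replicate 2 lay below 2 of the DMSO libraries. The means were 6.02 ± 1.12 against 4.93 ± 0.544 CPM, a log2 fold change of 0.29 (standard error 0.236, 95% interval −0.26 to 0.84), with an adjusted p of 0.541 by edgeR's test. In DMSO replicate 1, Tnfaip3 was at 0.875 times the background per kb of exon, against 3.17 to 17.5 times in the other libraries. The log2 fold change was 0.33 without that library, and 0.14 to 0.49 over the fits that each left out one of the 6. On counts less background, which are 0 for Tnf and Tnfaip3 in DMSO replicate 1, the fitted values were 1.76 for Tnf and 1.05 for Tnfaip3, and since these depend on how a count of 0 is treated they are not estimates of size.

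Tnfaip6, on chromosome 2 from 52038009 to 52056686, encodes TSG-6, a secreted hyaluronan-binding protein induced by TNF. Its level was 1.67, 2.22 and 4.15 CPM in LGK974 replicates 1, 2 and 3, and 4.02, 1.74 and 1.23 CPM in DMSO replicates 1, 2 and 3. The 2 highest libraries came from different groups, LGK974 replicate 3 and DMSO replicate 1. The means were 2.68 ± 1.30 against 2.33 ± 1.49 CPM, a log2 fold change of 0.20 (standard error 0.553, 95% interval −1.08 to 1.49), with an adjusted p of 0.869 by edgeR's test, the widest interval among the 10 genes. Without DMSO replicate 1 the value was 0.86, and without LGK974 replicate 3 it was −0.18 (adjusted p = 0.512 and 0.938 by edgeR).

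Nfkb1, on chromosome 3 from 135584655 to 135691547, encodes p105, the precursor of the p50 subunit of canonical NF-kB. Its level was 39.2, 44.95 and 49.8 CPM in LGK974 replicates 1, 2 and 3, and 35.4, 36.99 and 37.6 CPM in DMSO replicates 1, 2 and 3. The DMSO libraries were nearly equal, and LGK974 replicate 1 was only slightly above the highest of them. The means were 44.6 ± 5.31 against 36.7 ± 1.15 CPM, a log2 fold change of 0.28 (standard error 0.149, 95% interval −0.063 to 0.63), with an adjusted p of 0.393 by edgeR's test. Each fit that left out one library kept the sign, with values from 0.26 to 0.41.

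Nfkb2, on chromosome 19 from 46304320 to 46312385, encodes p100, the precursor of p52 and the inhibitor of RelB in the noncanonical branch. Its level was 22.8, 24.9 and 29.7 CPM in LGK974 replicates 1, 2 and 3, and 10.1, 15.7 and 22.1 CPM in DMSO replicates 1, 2 and 3. DMSO replicate 1 was the lowest, and DMSO replicate 3 (22.1 CPM) nearly reached LGK974 replicate 1 (22.8). The means were 25.8 ± 3.49 against 15.96 ± 6.04 CPM, a log2 fold change of 0.69 (standard error 0.278, 95% interval 0.049 to 1.34), with an adjusted p of 0.368 by edgeR's test. The value was 0.46 without DMSO replicate 1 and 1.10 without DMSO replicate 3 (adjusted p = 0.457 and 0.118 by edgeR). Exons of Nfkb2 share 299 bases with Psd and 531 bases with the long noncoding gene AC114539.1, both on the other strand, and whether reads were counted by strand is not given in the sources used here.

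Relb, on chromosome 7 from 19606217 to 19629438, encodes RelB, the partner of p52. Its level was 3.95, 3.94 and 6.48 CPM in LGK974 replicates 1, 2 and 3, and 4.42, 4.45 and 3.86 CPM in DMSO replicates 1, 2 and 3. LGK974 replicate 3 was the highest, and the other 5 libraries lay between 3.86 and 4.45 CPM. The means were 4.79 ± 1.47 against 4.24 ± 0.335 CPM, a log2 fold change of 0.17 (standard error 0.283, 95% interval −0.48 to 0.83), with an adjusted p of 0.767 by edgeR's test. Without LGK974 replicate 3 the log2 fold change was −0.036, so the positive value rested on that library. The 6 of 10 genes with their highest level in LGK974 replicate 3 included Relb, and 5 of 10 had their lowest level in DMSO replicate 1.

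**Figure D2:**
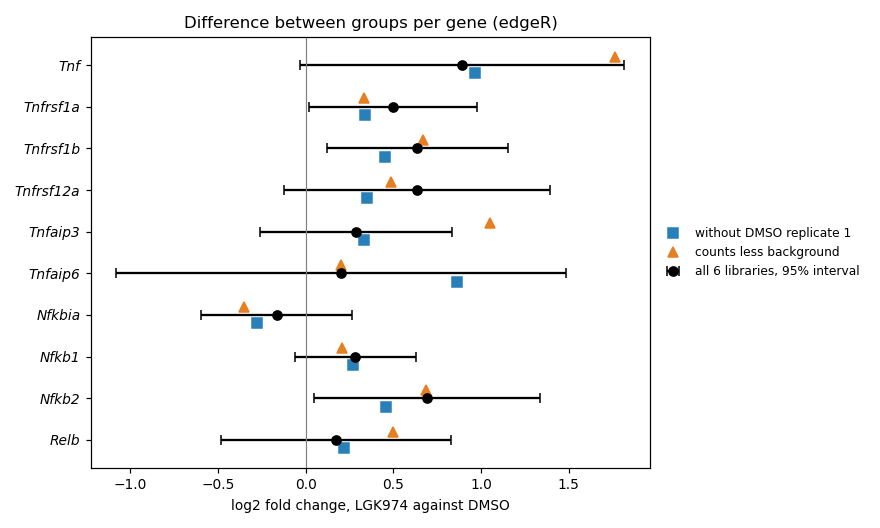
Log2 fold change of LGK974 against DMSO (horizontal axis) for each gene by edgeR, from all 6 libraries with 95% intervals (black circles), without DMSO replicate 1 (blue squares) and on counts less background (orange triangles). The intervals of Tnfrsf1a, Tnfrsf1b and Nfkb2 lie above 0 before adjustment, and the squares of these genes and of Tnfrsf12a lie closer to 0 than the circles.

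**Figure D3:**
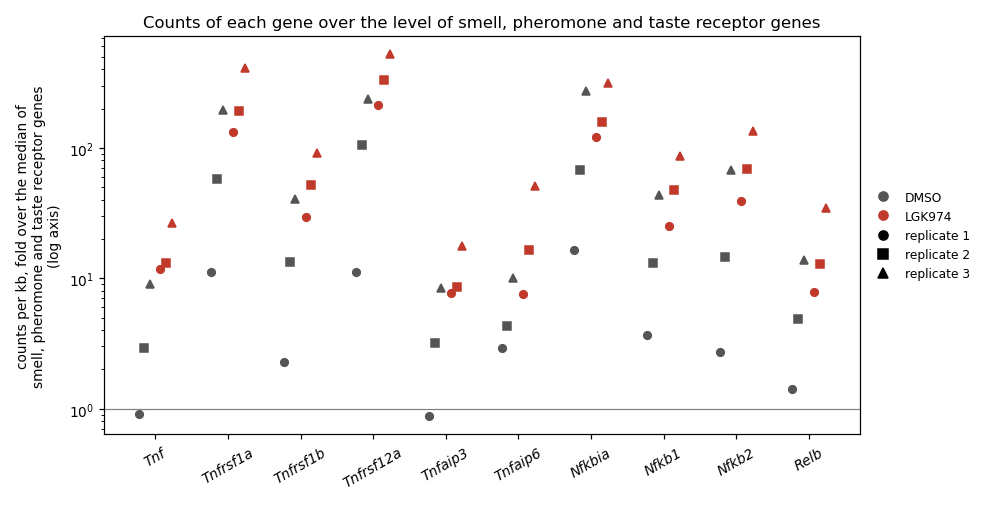
Counts per kb of exon of each gene, divided by the median of the smell, pheromone and taste receptor genes in the same library (vertical log axis, line at 1), for DMSO (grey) and LGK974 (red) libraries. DMSO replicate 1 is the lowest point in every gene and lies at 0.917 for Tnf and 0.875 for Tnfaip3.

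The transcripts behind these sums differed between genes. For Tnfrsf1a, Tnfrsf1b, Nfkbia and Nfkb2, transcripts annotated as protein-coding held 92.6 to 99.03%, 94.8 to 100%, 98.9 to 100% and 95.6 to 100% of the counts across the 6 libraries. For Tnfrsf12a the share was 88.8 to 97.2%, lowest in DMSO replicate 1. Transcripts with a retained intron took 31.6 to 47.3% of the Nfkb1 counts and 7.37 to 47.1% of the Tnfaip3 counts, in both genes most in DMSO replicate 1. In Relb they took 38.02 to 71.7% and protein-coding transcripts 7.47 to 47.1%. Kallisto divides reads between transcripts that share exons, so these shares are estimates. Counted on protein-coding transcripts alone, a way of counting chosen after the values were seen, the log2 fold change was 0.13 for Nfkb1, 0.45 for Tnfaip3 and −0.012 for Relb. For Tnf, Tnfrsf1a, Tnfrsf1b, Tnfrsf12a and Nfkb2 it was 0.80, 0.43, 0.56, 0.60 and 0.64. The unadjusted p-values of Tnfrsf1a, Tnfrsf1b and Nfkb2 again lay below 0.05 (edgeR, adjusted p = 0.322, 0.317 and 0.322). In that fit, 2564 of the 17179 genes tested lay below 0.05 in edgeR's unadjusted p-value.

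Ratios between members within a library do not depend on how libraries are scaled. The ratio of Nfkb2 to Nfkb1 in TPM was 0.602, 0.598 and 0.606 with LGK974 and 0.289, 0.451 and 0.658 with DMSO in replicates 1, 2 and 3. The LGK974 libraries were almost equal, and the DMSO libraries lay on both sides of them. The mean log2 ratio differed by 0.45 (exact two-sided permutation test, p = 0.4, n = 3 each), and by 0.14 without DMSO replicate 1 and 0.74 without DMSO replicate 3. The ratio of TNFR2 to TNFR1 transcripts (Tnfrsf1b to Tnfrsf1a) was 0.233, 0.340 and 0.213 with LGK974 and 0.205, 0.314 and 0.147 with DMSO, a difference of 0.28 in the mean log2 ratio (exact permutation test, p = 0.4). Its TPM is sensitive to Tnfrsf1b-202, a short transcript with few counts, and in CPM the difference was 0.16 (exact permutation test, p = 0.3). In TPM it was 0.015 without DMSO replicate 3, 0.074 without LGK974 replicate 2 and 0.56 without DMSO replicate 2. The ratio of the A20 gene to the IkB-alpha gene (Tnfaip3 to Nfkbia) was 0.157, 0.0861 and 0.132 with LGK974 and 0.145, 0.0830 and 0.0557 with DMSO. The mean log2 ratio differed by 0.47 in TPM and by 0.43 in CPM (exact permutation tests, p = 0.4 and 0.1), and in CPM every LGK974 library lay above every DMSO library. In TPM the difference was 0.15 without DMSO replicate 3, 0.29 without LGK974 replicate 1, 0.72 without LGK974 replicate 2 and 0.84 without DMSO replicate 1. The TPM of Tnfaip3 is also sensitive to short transcripts with few counts. Its transcript of 456 bases held 38.65% of its TPM in LGK974 replicate 3. Its transcript of 764 bases held 29.4 and 28.2% in DMSO replicates 1 and 3. In DMSO replicate 1, Tnfaip3 was at 0.875 times the background per kb of exon. The ratio in that library thus rests on Tnfaip3 counts that could not be told from the background. With 3 ratios compared, the adjusted p was 0.4 for each in TPM and 0.3 for each in CPM by the exact permutation test, and 0.1 is the smallest unadjusted p that 3 mice against 3 allow.

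The surrounding pathway was read from 6 gene lists, which were chosen with earlier results of these data known. Of 14 tested other ligands of the TNF superfamily, 6 were higher and 8 lower with LGK974, with a median log2 fold change of −0.63. At an unadjusted p-value under 0.05 by edgeR, 0 were higher and 1 lower (6.26% and 7.18% of all genes). Without DMSO replicate 1 the median of this list was 0.20, so its sign was set by that library. The 1 lower gene was Tnfsf15, the ligand TL1A, at 0.835 ± 0.278 against 2.73 ± 2.16 CPM. DMSO replicate 1 was the highest, with 5.23 CPM against 1.49 and 1.47 in DMSO replicates 2 and 3. The log2 fold change of Tnfsf15 was −1.70 with all libraries and −0.80 without DMSO replicate 1, where edgeR's unadjusted p was 0.131. Tnfsf14, Tnfsf13b and Eda had log2 fold changes of 1.13, −0.99 and −0.64, and of 1.63, −0.43 and −0.49 without DMSO replicate 1. In that fit 1 ligand, Tnfsf14, was higher at the unadjusted threshold and 0 lower. Lta, Cd40lg and Cd70 had too few counts to be tested. Of 24 tested other receptors, 11 were higher and 13 lower (median −0.097, and 0.22 without DMSO replicate 1). Only the decoy receptor gene Tnfrsf23 reached the unadjusted threshold, with a log2 fold change of 0.85. Without DMSO replicate 1 there were 3 such receptors, all higher (7.12% of all genes were higher at that threshold). Tnfrsf21 had a value of 0.35. Tnfrsf22 had −1.12 with all libraries and −0.22 without DMSO replicate 1, a library in which it was at 27.5 CPM against 6.61 and 9.02 in the other DMSO libraries. Tnfrsf19 had −2.31 and too few counts to be tested without that library. This gene had 5 to 20 counts in the LGK974 libraries. Per kb of exon, it lay below the background in all of them and in DMSO replicates 1 and 2.

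Among 28 adaptors and kinases that link the receptors to NF-kB, 19 were higher and 9 lower with LGK974, with a median log2 fold change of 0.075. At an unadjusted p-value under 0.05 by edgeR, 3 of 28 were higher and 0 lower, where 6.26% and 7.18% of all genes were. They were Ikbke, an IkB kinase-related kinase (10.6 ± 4.22 against 5.31 ± 0.960 CPM), Tank, an adaptor of that kinase (31.02 ± 1.72 against 23.1 ± 1.12 CPM), and Ripk1, the kinase recruited to TNFR1 (35.4 ± 3.08 against 27.03 ± 3.09 CPM). Their log2 fold changes were 0.99, 0.43 and 0.39, all at an adjusted p of 0.368, and their groups did not overlap. That of Ripk1 was 0.37 without DMSO replicate 1, with an unadjusted p of 0.0505. In DMSO replicate 1, Ikbke was at 0.646 times the background per kb of exon, so its counts there could not be told from the background. Without that library the log2 fold change of Ikbke was 0.92 (unadjusted p = 0.0175 by edgeR). On counts less background, edgeR's unadjusted p for Ikbke was 0.199. Traf5 had a value of −1.22 that was −0.38 without DMSO replicate 1 and 0.11 on protein-coding transcripts alone. Among 10 further genes, called Rel and IkB genes here and below, 7 were higher and 3 lower (median 0.20). This list also holds Bcl10, Nkrf and Nkap, other NF-kB regulators that are neither Rel nor IkB proteins. At an unadjusted p-value under 0.05 by edgeR, 2 were higher and 0 lower (6.26% and 7.18% of all genes). These were Nfkbiz, the nuclear IkB protein IkB-zeta, at 20.5 ± 4.94 against 13.1 ± 1.59 CPM, and Bcl3, a nuclear IkB protein that binds p50 and p52 dimers, at 13.5 ± 5.58 against 7.78 ± 1.43 CPM. The log2 fold changes were 0.64 and 0.80, and those of Nfkbie and of Rela, the p65 subunit, were 0.66 and 0.27 with overlapping groups. These 4 values without DMSO replicate 1 were 0.56, 0.68, 0.40 and 0.15, and the unadjusted p of Bcl3 was 0.0550.

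Of 17 deubiquitinases and other brakes or processing enzymes, 12 were higher and 5 lower with LGK974 (median 0.13). At an unadjusted p-value under 0.05 by edgeR, 4 were higher and 1 lower (6.26% and 7.18% of all genes). The smallest p-value was that of Usp18, a protease of the interferon-induced modifier ISG15, at 7.59 ± 0.827 against 3.66 ± 0.789 CPM, a log2 fold change of 1.05 (adjusted p = 0.368 by edgeR and 0.0289 by DESeq2). Adam17, the protease that releases TNF from the cell surface, was at 44.8 ± 3.84 against 32.5 ± 3.001 CPM, a log2 fold change of 0.46. Tnfaip8l2 and Tnip3 had values of 1.05 and −1.45, and that of Tnip3, an A20-binding protein gene, was −0.80 without DMSO replicate 1, with an unadjusted p of 0.0769.

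Among 36 tested NF-kB target genes other than the 10, 31 were higher and 5 lower with LGK974 (8130 and 11964 of all 20094 genes). Their median log2 fold change was 0.43 (0.54 without DMSO replicate 1), beside −0.13 over all genes. At an unadjusted p-value under 0.05 by edgeR, 10 of 36 were higher and 0 lower (6.26% and 7.18% of all genes), and in 14 every LGK974 library lay above every DMSO library (10.7% of all genes). Without DMSO replicate 1, 12 were higher and 0 lower at that threshold (7.12% of all genes were higher). The smallest p-values were those of the monocyte-attracting chemokine genes Ccl7, at 21.4 ± 3.26 against 8.24 ± 2.55 CPM, and Ccl2, at 40.4 ± 5.42 against 17.6 ± 5.46 CPM. Their log2 fold changes were 1.38 (standard error 0.246) and 1.20 (standard error 0.241), with an adjusted p of 0.368 by edgeR and of 0.000837 and 0.00341 by DESeq2. Tnfaip2, a TNF-induced gene, and Plau, the urokinase plasminogen activator gene, had values of 0.77 and 0.80. Csf2 and Csf3 had too few counts to be tested. The summed level of the target list overlapped between groups, at 746 to 807 CPM with LGK974 and 698 to 779 with DMSO.

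**Figure D4:**
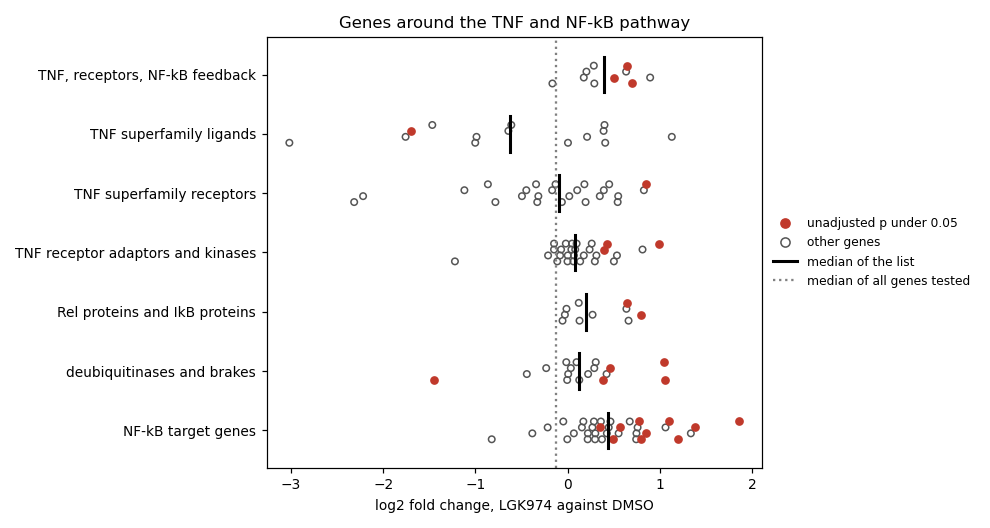
Log2 fold change of LGK974 against DMSO (horizontal axis) for every tested gene of the 10 and of the 6 surrounding lists, one point a gene, filled red at an unadjusted p-value under 0.05 by edgeR. Black bars mark list medians, from −0.63 for the ligands to 0.43 for the target genes, and the dotted line marks the median of all genes tested, −0.13.

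Marker genes of the cell types that the tissue could hold, also listed with earlier results known, were read beside these values. All 15 macrophage and monocyte markers were higher with LGK974, where 8130 of all 20094 genes tested were. Their median log2 fold change was 0.82 (0.78 without DMSO replicate 1). Of these markers, 10 lay below 0.05 in edgeR's unadjusted p-value (6.26% of all genes were higher at that threshold) and 8 in DESeq2's adjusted one (1.97%). Their summed level was 652 to 784 CPM with LGK974 and 303 to 451 with DMSO, without overlap. The 12 fibroblast markers summed to 4064 to 6780 against 2029 to 2962 CPM, also without overlap, with 11 of 12 higher. The 11 endothelial markers had a median of 0.014 (−0.15 without DMSO replicate 1) and overlapped in their sum, at 831 to 912 against 749 to 1062 CPM. Of 15 cardiomyocyte markers 11 were lower and 4 higher (median −0.42), while those that passed a threshold were higher, 2 against 0 lower at edgeR's unadjusted and at DESeq2's adjusted p-value under 0.05. At edgeR's unadjusted threshold there were 2 in each direction without DMSO replicate 1 (11% of all genes lay below it in that fit, in either direction). Of 12 neutrophil markers 6 had enough counts, with a median of −0.072 (0.17 without DMSO replicate 1) and a sum of 33.8 to 47.8 against 41.7 to 86.1 CPM, highest in DMSO replicate 1. The defining marker Ly6g was among the 6 with too few counts. T cell markers (10 tested) and B cell markers (8 tested) had medians of −0.79 and −0.095, and of −0.15 and 0.45 without DMSO replicate 1. They summed to 24.8 to 32.04 against 27.6 to 60.8 and to 13.2 to 18.01 against 9.11 to 21.4 CPM, again highest in DMSO replicate 1. No marker of these lists was at 0 in all libraries. The part of cell numbers in the values of the 10 genes was not tested.

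Finally, the gene with the most similar profile over the 6 libraries was sought for each member among 15515 genes with a mean of at least 1 CPM. Likeness was the root mean square difference of log2 CPM after centring each gene on its own mean, so a smaller value means a closer profile. The closest genes were Rpa3 for Tnf (0.0758), Ddost for Tnfrsf1a (0.0208), Ier5 for Tnfrsf1b (0.0474), Shb for Tnfrsf12a (0.117) and Cep41 for Tnfaip3 (0.0663). For the others they were C1qtnf3 for Tnfaip6 (0.110), 2900026A02Rik for Nfkbia (0.0461), Ppid for Nfkb1 (0.0449), Scamp4 for Nfkb2 (0.0878) and Apaf1 for Relb (0.0537). The median over all genes was 0.316 to 0.742, depending on the member. Within the 10, the closest pair was Tnfrsf1a and Tnfrsf1b (0.134). With so few libraries and so many genes a close profile is found for any gene, and the values are a description.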

How the data were processed

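RNA of the infarct area from 3 LGK974 and 3 DMSO mice was sequenced after depletion of ribosomal RNA and library preparation with a capture kit. With Kallisto and an Ensembl transcript index (GRCm38), the authors quantified and deposited estimated counts for 118489 transcripts per library. The deposited TPM values are scaled to transcript length and to one fixed sum per library. The Kallisto version is not given in the sources used here. The estimated counts were joined to genes with GENCODE M21 (98.6% of transcripts, 99.6 to 99.7% of counts), summed and rounded. Genes reaching 10 counts in 3 or more libraries were tested with edgeR 4.0.16 (quasi-likelihood, TMM, treatment only, Benjamini-Hochberg over all genes, R 4.3.3), with DESeq2 1.42.0 and limma 3.58.1 as alternatives and intervals of 95%. Alternatives changed the tool, normalization, filter, counting unit, background, replicate block and libraries used. The tests were first tested on simulated data. The 10 genes and all lists were chosen with earlier results of these data known. Named pathway genes were the up to 4 of each list with the smallest p-values. A planned fit without mitochondrial genes left out the 13 present in the files. Tables used Python 3.11.15 and pandas 2.3.3.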

Additional observations from a re-analysis of the deposited data

How the results depend on the processing

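The absence of calls among the 10 genes at an adjusted p-value of 0.05 held in all 17 alternatives, while the count over all genes was 337 with DESeq2, 1206 without a filter on low counts, 0 to 2 with one library left out (2 without DMSO replicate 1) and 0 in the other alternatives. At an unadjusted threshold of 0.05, edgeR gave 4790 genes without the filter and 821 to 4628 with one library left out (lowest without LGK974 replicate 3, highest without DMSO replicate 3), against 2699. Of the 10 genes, 0 to 3 passed that threshold with one library left out (0 without LGK974 replicate 2 or 3), and 2 to 4 in the other alternatives. The sign of 3 members turned. Nfkbia was at 0.052 with library totals alone and from −0.28 to 0.096 with one library left out, Tnfaip6 from −0.18 to 0.86, and Relb from −0.036 to 0.36 and at −0.012 on protein-coding transcripts alone, an alternative chosen after seeing the data. Tnf, Tnfrsf1a, Tnfrsf1b, Tnfrsf12a, Tnfaip3, Nfkb1 and Nfkb2 kept their sign in every alternative. Among named pathway genes, Tnfsf13b (0.54) and Eda (0.13) turned on counts less background and Traf5 (0.11) on protein-coding transcripts alone. The cause was not tested. With one library left out, the median log2 fold change ranged from 0.35 to 0.56 for the 10 genes, −0.82 to 0.20 for ligands, −0.18 to 0.22 for receptors, 0.096 to 0.20 for adaptors and kinases, 0.15 to 0.43 for Rel and IkB genes, 0.011 to 0.33 for deubiquitinases and brakes, 0.33 to 0.60 for targets, −1.07 to −0.15 for T cell, −0.52 to 0.45 for B cell and −0.15 to 0.27 for endothelial markers. The median over all genes was −0.13, and it was 0.08 with library totals alone, −0.55 without the filter and 0.03 on counts less background. Replicate numbers occur in both groups, but the deviations of same-numbered libraries correlated at 0.47, −0.048 and 0.39, and LGK974 replicate 2 correlated best with DMSO replicate 3, so the numbers were not taken as pairs. With the replicate block, 4 of the 10 genes passed the unadjusted threshold, 0 the adjusted one, and 3312 genes the unadjusted one (16.5%). Low counts and the background limit what can be read of Tnf, Tnfaip3, Tnfaip6 and Relb. Among named pathway genes, Ikbke, Nfkbie, Tnfsf14, Tnfsf13b, Eda and Tnfrsf19 lay below the background per kb of exon in DMSO replicate 1.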
